A study of Rattus norvegicus with 24 samples.

Results

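The genes of the cytoplasmic ribosomal proteins were picked from the transcript table by symbol. Protein-coding rows whose symbols begin with Rpl or Rps, followed by a digit or by the p of the stalk genes, were summed per gene, leaving out the Rps6k kinases as well as Rpl3 and Rpl3l. This gave 78 of the 15273 genes in the table, from 110 transcript rows. They comprised 38 proteins of the large 60S subunit, 24 proteins of the small 40S subunit, the 3 genes of the acidic stalk, 12 paralogues or extra copies, and Rps19bp1, which encodes a protein that binds a ribosomal protein and is not itself part of the ribosome. Of the 75 standard symbols that the rule covers, 65 had rows, and the other 10, among them Rpl22 and Rps19, were not analysed here.

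Ribosomal proteins are made in the cytoplasm, imported into the nucleus and assembled there with ribosomal RNA into the subunits that later translate mRNA, so the supply of these proteins bounds how many ribosomes a cell can build. Most of their mRNAs begin with a C followed by an unbroken run of pyrimidines, the terminal oligopyrimidine (TOP) tract, through which mTORC1 signalling controls their translation. In skeletal muscle, ribosome production is known to increase with repeated loading, and Myc and RNA polymerase I take part in it.

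The muscles came from adult male Wistar rats that trained the left tibialis anterior, the main dorsiflexor of the ankle, in 1 session of high-load resistance exercise a day for 2, 10, 20 or 30 days, driven by an implanted pulse generator that stimulates the nerves of that leg. Poly-A RNA was sequenced from 24 muscles of 12 animals, 3 animals for each duration. The trained left muscle and the unstimulated right muscle of the same animal were both taken about 1 h after the last session. Following the study, each trained group of 3 was compared with the 12 contralateral muscles pooled as controls. The contralateral muscle belongs to an animal that was itself operated on and trained in the other leg, and it is not a sham muscle.

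The deposited values add up to the same total of 634431 in every muscle. They were taken to be of the TPM type, which is scaled for transcript length. The study states a DESeq2 median-of-ratios normalization, and a constant total does not by itself show scaling for length. The values keep no sequencing depth, for which the study states only a minimum over all samples, so the counting error of a value cannot be computed. The values were rescaled between muscles by median-of-ratios factors of 0.784 to 1.13, and the levels below are these rescaled values. Levels can be compared between genes only if the values are per length, which was assumed and not checked. A change is given on the log2(value + 1) scale with its standard error, and is called when the limma p-value, adjusted by the method of Benjamini and Hochberg over the 11206 genes that reached a value of 1 in 3 or more muscles, is under 0.05. This scale understates the change of genes at low levels. Transcripts of the mitochondrial genome took 28.1% to 33.1% of the deposited values in the contralateral muscles of 2, 10 and 20 days. They took 25.3% to 28.8% in the muscles trained for 2 days and 23.7% to 27.7% in those trained for 10 days. They took 30.1% to 44.2% in the contralateral muscles of 30 days and 40.4% to 44.6% in the muscles trained for 30 days, and the values as deposited are therefore also given where they changed a count. A bulk sample cannot tell fewer cells of one type apart from less RNA in each of those cells.

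The starts of the genes are shown first, since the TOP tract is what most members share apart from their symbol. A promoter sequence from RefSeq (build GRCr8) could be matched by symbol to 49 members whose locus in the table lay on the same chromosome. Position and strand were not compared, and for Rpl10 and Rps16 the strand differs between Rnor_6.0 (minus) and GRCr8 (plus). The start shown need not be that of the locus in the table. A C followed by at least 4 pyrimidines, with that C within 10 bases of the annotated start, was present in 35 of the 49 (71.4%) and in 28.2% of all 19005 protein-coding promoters searched the same way. The windows below run from 10 bases before the annotated start to 20 bases from the start onwards, with the tract in capitals. They show members that the results turn on, 8 with a tract and 4 without one.
Rpl5, chr14:1995206-1995235, minus strand: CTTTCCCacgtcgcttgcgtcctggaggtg
Rpl10, chrX:157205840-157205869, plus strand: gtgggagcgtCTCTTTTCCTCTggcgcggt
Rpl10a, chr20:6390523-6390552, plus strand: cttctgCCTTCTTTTCCggttcccgcagcc
Rpl4, chr8:73566467-73566496, plus strand: tCTTCCTTTTCCTgtgggagcagccgggta
Rpl12, chr3:36661930-36661959, plus strand: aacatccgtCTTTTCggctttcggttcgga
Rpl31, chr9:49143101-49143130, plus strand: atccctcgcgCCTTTCCTTTCCaacttggg
Rplp0, chr12:46718371-46718400, minus strand: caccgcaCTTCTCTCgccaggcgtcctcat
Rplp1, chr8:71290853-71290882, minus strand: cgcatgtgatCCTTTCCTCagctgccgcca
Rps12, chr1:23500065-23500094, plus strand: gaagcccagcagagcgcttaaataccgtca
Rpl18, chr1:105325260-105325289, plus strand: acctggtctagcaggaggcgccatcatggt
Rpl6, chr12:41011671-41011700, minus strand: ttacatcactagatggcgggtgaaaaggcg
Rplp2, chr1:205975911-205975940, plus strand: cgccgccggacgccgccgaggtcgcacgcg
In Rpl10, Rpl31 and Rplp1 the tract began at the annotated first base, which was so for 6 of the 35 members with a tract, and in 15 of the 35 it began within 2 bases of it. The tracts were 5 to 21 bases long with a median of 10, and the longest belonged to Rps23. No tract in a window says only that these letters are not near that annotated start, which need not be the start used in muscle. Likewise, a tract that ends before the annotated start, such as that of Rpl5, lies outside the mRNA by that annotation. Members with such a tract are counted among the 35.

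Other motifs were searched on both strands over 300 bases, 250 before the annotated start and 50 after it. The motif CCGGAAG, a form of the site of ETS-family factors, occurred in 14 of the 49 promoters (28.6%) and in 11.2% of all promoters. GGGCGG, the core of the site of Sp1, was present in 27 (55.1%, against 43.1%). CACGTG, the E-box to which Myc binds, was present in 5 (10.2%, against 7.27%), AAGATGGC, a form of the YY1 site, in 3 (6.12%, against 3.92%) and TATAAA in 6 (12.2%, against 13.1%). These counts describe letters in a window and no factor was measured at them.

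In the 12 contralateral muscles the members spanned from listed values near 0 up to 504. Rplp1, a protein of the acidic stalk that recruits elongation factors, was highest at 504 ± 90.2 (SD, n = 12). It was followed by Rps4x, a 40S protein, at 444 ± 57.1 and by Rplp0, the base of the stalk, at 414 ± 58.2, and these values overlapped within their spread. The middle of the 78 lay at 82.4, and the 10 highest members held 36.2% of the summed level. Over the 68 members with a mean of at least 10, the coefficient of variation between the 12 muscles had a median of 14.6%, from 8.03% for Rpl15 to 47.6% for Rpl30.

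The levels of single members were uneven although the ribosome holds its standard proteins in near equal numbers. Of the 65 standard members, 43 lay between 10 and 200, 19 lay above 200, and 3 lay below 10, namely Rpl35a at 3.10, Rpl7a at 1.49 and Rpl13 at 0.137. Rplp2, the stalk partner of Rplp1, stood at 12.1 ± 2.20, and Rps6, the 40S protein phosphorylated by the S6 kinases, at 17.7 ± 3.87. Each of the 65 has at least 1 further copy or pseudogene named after it in RefSeq (median 15, highest 36). Reads of a ribosomal protein mRNA may therefore have been split between near-identical sequences. The absolute level of a member is uncertain for that reason, and because scaling for length was assumed.

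For 8 members the locus in the table (Rnor_6.0) lay on another chromosome than the RefSeq gene of that symbol, and spanned only 304 to 690 bases. These were Rpl35a, Rpl37, Rpl39, Rpl9, Rps10l1, Rps13, Rps27a and Rps29. A further 6 symbols pooled several gene identifiers, which were Rpl21, Rpl32, Rpl7a, Rps10, Rps19l2 and Rps4x. The values of these 14 members carry the name that the table gives them.

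Most paralogues lay below the gene they are named after. Rpl10l stood at 0.645 against 306 for Rpl10, Rps4y2 at 1.02 against 444 for Rps4x, Rps10l1 at 0.746 against 138 for Rps10, and Rpl7l1 at 11.1 against 39.4 for Rpl7. In 2 pairs the order was the other way round, with Rps18l1 at 247 against 56.9 for Rps18, and Rpl36al at 83.9 against 16.7 for Rpl36a. Rps27l, a paralogue of Rps27 induced by p53, stood at 29.8 against 42.0. Rpl39l and Rplp0l1, at 0.130 and 0.107, were the 2 members too low to be tested, which left 76.

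**Figure D1:**
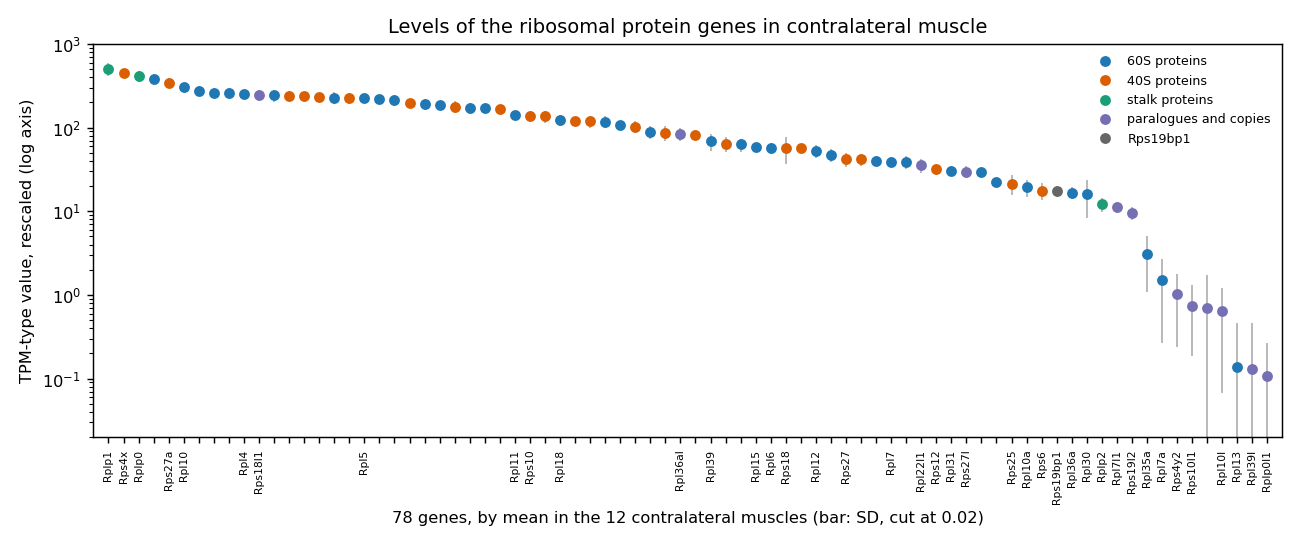
Mean level of the 78 members in the 12 contralateral muscles, in rescaled values taken to be of the TPM type, on a log axis, with bars of 1 SD and colours for the subunit or class, some of the genes being named. The members run from Rplp0l1 at 0.107 to Rplp1 at 504, and the standard members below 10 (Rpl35a, Rpl7a and Rpl13) stand among paralogues.

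After 2 days of training, the ribosomal protein mRNAs as a list stood above the controls. Of the 76 members tested, 27 rose (35.5%) and 0 fell by limma at an adjusted p under 0.05, where 15.6% of all genes tested rose and 13.1% fell. Without adjustment, 43 members were higher (56.6%) and 0 lower at p under 0.05, against 20.5% and 19.5% of all genes. The median log2 fold change over the 76 was 0.33, against -0.01 over all genes tested, and 69 of the 76 lay above 0. The changes were small, from 0.26 to 0.87 among the members called.

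The comparison at 2 days depended on which controls were used. With each trained muscle set against its own contralateral muscle (animal as a replicate block), 3 members rose, Rpl10a, Rpl5 and Rpl6, and 0 fell, where 12.1% of all genes rose and 9.56% fell. By the same fit 13 members (17.1%) passed an unadjusted p under 0.05, all higher, where 18.1% of all genes did so higher and 16.8% lower, which is no larger share than that of all genes. The median was 0.19, 68 of the 76 members lay above 0, and so did all 27 that were called against the pooled controls. Set against the 3 contralateral muscles of 2 days alone, 2 members rose (Rpl5 and Rps19l2). Of the 27, 23 were higher in the trained muscle in 3 of 3 animals, and of all 76 members 40 were, with no share of all genes computed beside them. The 27 were picked through these same trained muscles, so the counts among them are no independent support. On the values as deposited 52 members rose and 0 fell, with a median of 0.43 over the members and of 0.07 over all genes. No share of all genes called is given beside this count or beside that against the 2-day contralateral muscles alone.

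By class, 14 of 38 proteins of the 60S subunit rose at 2 days, with a median log2 fold change of 0.31, and 8 of 24 of the 40S subunit rose, with a median of 0.35. Of the 10 paralogues tested, 4 rose, with a median of 0.25. Of the 3 stalk genes, Rplp0 rose. Rps19bp1 had values of 17.9, 21.8 and 25.7 and was not called, with a log2 fold change of 0.30 ± 0.14 (SE) and an adjusted p of 0.109.

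**Figure D2:**
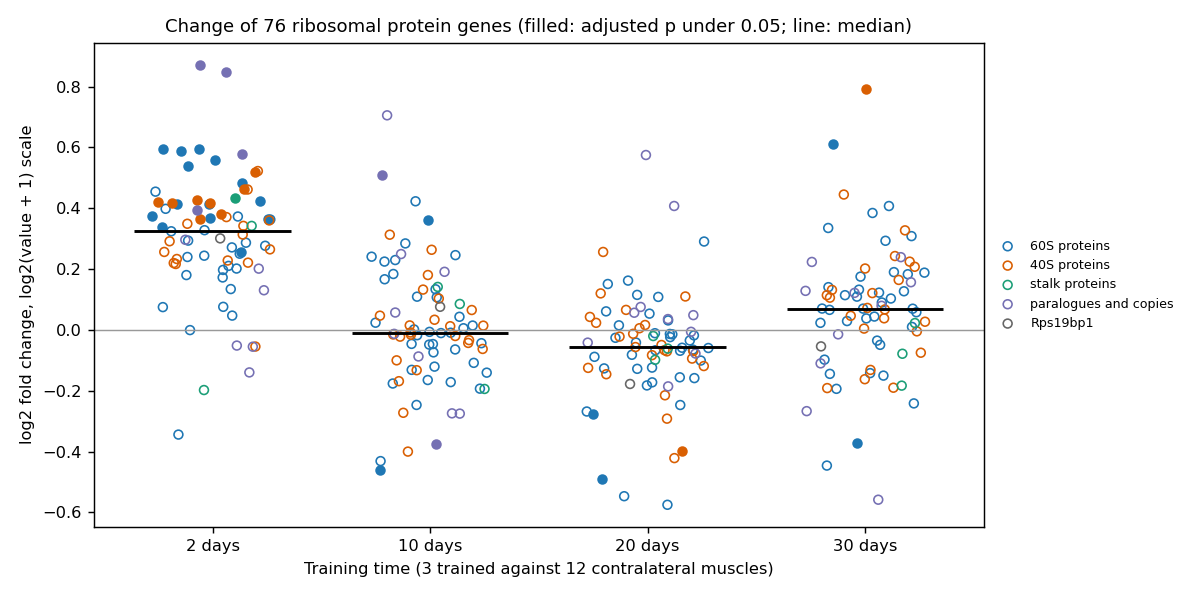
Log2 fold change of each of the 76 tested members against the 12 pooled contralateral muscles at 2, 10, 20 and 30 days. Each point is 1 gene, filled where the limma adjusted p is under 0.05, and the line marks the median, which is 0.33, -0.01, -0.06 and 0.07 in that order.

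Rpl5 belongs to the 5S ribonucleoprotein, the complex that it forms with Rpl11 and 5S rRNA and that can also bind Mdm2. Its gene lies on chromosome 14 (Rnor_6.0, 2860965 to 2867398, minus strand). In the muscles trained for 2 days it stood at 279, 364 and 348, and in the controls its lowest, median and highest values were 200, 226 and 272. All 3 trained muscles were above all 12 controls, animal 1 by the least. The log2 fold change was 0.54 ± 0.09 (adjusted p = 0.000126), and 0.39 with the animal as block (adjusted p = 0.0279). Rpl5 was called at 2 days in 28 of 28 alternative settings. Its partner Rpl11, at 134, 178 and 166, had a change of 0.17 ± 0.11 and was not called (adjusted p = 0.251).

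Rpl10a and Rpl6 were the others called under both fits. Rpl10a, a 60S protein of the L1 stalk, stood at 27.9, 32 and 26.7 at 2 days, where the controls ran from 11.3 over a median of 19.8 to 27.0. Only the lowest trained value overlapped the highest control. The change was 0.59 ± 0.18 (adjusted p = 0.0154) against the pooled controls and 0.40 (adjusted p = 0.0331) with the block. For Rpl6, which has no tract at its annotated start, the values were 62.2, 92.0 and 87.2, and the controls ran from 46.7 over 54.7 to 73.8. Here animal 1 lay within the range of the controls and the other animals above it. The change was 0.48 ± 0.13 (adjusted p = 0.00698) and 0.43 with the block (adjusted p = 0.0472).

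Other 60S proteins rose against the pooled controls and were not called with the block. Rpl18 stood at 154, 207 and 204 against controls of 103, 121 and 172 (lowest, median and highest), a change of 0.59 ± 0.14 (adjusted p = 0.00295), and its blocked adjusted p was 0.137. Rpl12, a protein at the base of the stalk, stood at 63.1, 92.5 and 85.2 against 34.2, 55.4 and 68.6, a change of 0.59 ± 0.17 (adjusted p = 0.0127, blocked 0.246). In both genes animal 1 overlapped the controls and animals 2 and 3 lay above all of them. The same held for Rpl4, at 298, 361 and 361 against 216, 261 and 311, with a change of 0.41 ± 0.12 (adjusted p = 0.00883, blocked 0.262). Further 60S members called were Rpl13a, Rpl15, Rpl23, Rpl27a, Rpl31 and Rpl34, which rose by 0.26 to 0.42.

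Of the stalk genes, which recruit the elongation factors to the ribosome, only Rplp0 was called. Rplp0 stood at 493, 592 and 583 at 2 days, where the controls ran from 347 over 396 to 539, and it rose by 0.43 ± 0.14 (adjusted p = 0.0192), with a blocked change of 0.16 (adjusted p = 0.452). Rplp1 stood at 605, 672 and 615 against 407, 466 and 730, with a change of 0.34 ± 0.14 that was not called (adjusted p = 0.0645) and was 0.01 with the block. Rplp2 stood at 7.40, 10.9 and 13.2 against 8.95, 11.1 and 15.3, with a change of -0.20 ± 0.17 (adjusted p = 0.397). The trained values of Rplp1 and Rplp2 lay within or below the range of the controls.

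Among the 40S proteins, Rps12 had the largest called change at 2 days. It stood at 35.7, 51.8 and 51.6 where the controls ran from 26.8 over 31.6 to 39.2, so that only animal 1 overlapped them, and the change was 0.52 ± 0.14 (adjusted p = 0.0055, blocked 0.153). Rps27a, which is made as a fusion with ubiquitin, stood at 402, 483 and 464 against 294, 340.5 and 430, a change of 0.38 ± 0.12 (adjusted p = 0.0183, blocked 0.196). Rps10 rose by 0.46 ± 0.13 (adjusted p = 0.0103, blocked 0.117). Rps6 spread widely, at 16, 43.0 and 20.5 against 13.4, 16.7 and 25.7, and its change of 0.46 ± 0.23 was not called (adjusted p = 0.14). Further 40S members called were Rps3, Rps9, Rps13 and Rps15, which rose by 0.37 to 0.43.

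Rps19l2, a locus pair named after Rps19, whose own symbol was not analysed here, showed the largest change of all members. It stood at 17.4, 17.7 and 19.6 at 2 days, and the controls at 7.23, 10.2 and 13.2 (lowest, median and highest), with no overlap. It rose by 0.87 ± 0.17 (adjusted p = 0.000354), and by 0.67 with the block, where it was not called (adjusted p = 0.0591). Rps4y2, at 1.69, 3.53 and 2.32 against 0.246, 0.738 and 2.78, rose by 0.85 ± 0.27 (adjusted p = 0.0196, blocked 0.0777) at a level near the pseudocount. Rpl22l1, a paralogue of Rpl22, stood at 41.2, 58.8 and 60.4 against 23.7, 35.4 and 46.6, and rose by 0.58 ± 0.18 (adjusted p = 0.0199, blocked 0.113).

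In 3 pairs of a standard gene and its paralogue both estimates at 2 days lay above 0, and the difference within a pair was not tested. Rpl36al rose by 0.39 ± 0.13 (adjusted p = 0.0309) and Rpl36a had a change of 0.37 ± 0.16 (adjusted p = 0.0839). Rps18 and Rps18l1 had changes of 0.52 ± 0.29 and 0.30 ± 0.15, neither of them called (adjusted p = 0.178 and 0.143). Rps27 and Rps27l had changes of 0.34 ± 0.16 and 0.13 ± 0.13 (adjusted p = 0.118 and 0.479). The lowest estimate at 2 days was that of Rpl7a, at -0.34 ± 0.39 (adjusted p = 0.534), in values of 0.565 to 0.933 that lie close to 0.

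At 2 days the members with and without a tract near the annotated start were set side by side, and the difference was not tested. Members whose tract ends before that start are among those with a tract. Of the 35 members with a tract, 14 rose, the median was 0.37 and 34 lay above 0. Of the 14 without one, 5 rose, the median was 0.26 and 12 lay above 0. At 10, 20 and 30 days the medians were -0.01, -0.07 and 0.05 with a tract and -0.02, -0.04 and 0.05 without one.

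**Figure D3:**
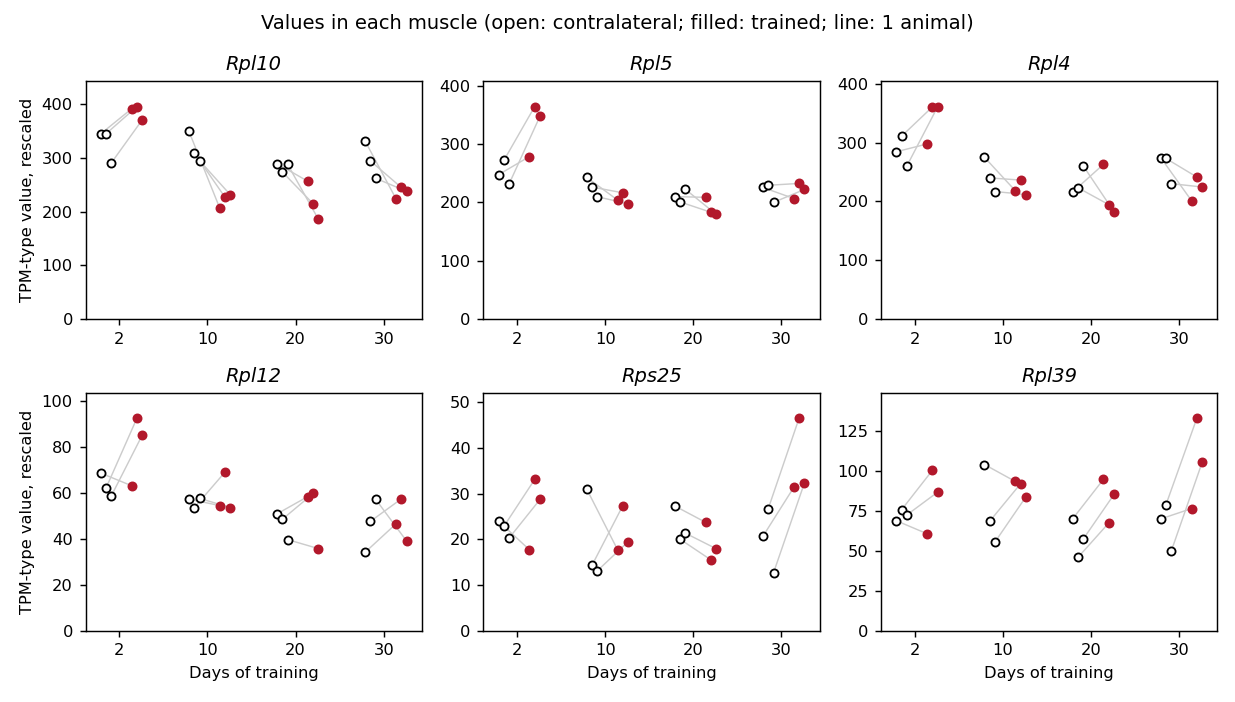
Rescaled values of Rpl10, Rpl5, Rpl4, Rpl12, Rps25 and Rpl39 in each of the 24 muscles, by time point, with open points for the contralateral and filled points for the trained muscles, and a line for each animal. Rpl10 lies above all controls at 2 days (371 to 396, against 262 to 350) and below all of them at 10, 20 and 30 days, whereas all 3 values of Rps25 lie above the controls at 30 days.

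The 2-day values of the list were lowest in animal 1. The median over the 76 members of the log2 deviation from the control mean was 0.10, 0.43 and 0.42 in the trained muscles of animals 1, 2 and 3, and 0.07, 0.27 and 0.04 in their contralateral muscles. Trained minus own contralateral, the medians were 0.02, 0.15 and 0.35, with 44, 60 and 71 of 76 members above 0. Of all genes, 48.5%, 49.7% and 49.3% lay above 0 in these animals. Leaving out the trained muscle of animal 2 left 4 members called, Rpl18, Rpl5 and Rps19l2 among them, leaving out that of animal 3 left 7, and leaving out that of animal 1 gave 36.

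The contralateral muscles of 2 days also stood somewhat apart from the later ones. Against the other 9 contralateral muscles, 71 of the 76 members were higher at 2 days, with a median of 0.16 (0.01 over all genes), and 0 members were called by limma at an adjusted p under 0.05, where 0.241% of all genes were. Of the members, 13 (17.1%) passed an unadjusted p under 0.05, and so did 12.9% of all genes. An F test over the 4 contralateral groups called 0.0625% of all genes and 0 members, with 10 members (13.2%) and 10.7% of all genes at an unadjusted p under 0.05. Without the 2-day contralateral muscles in the pool 32 members were called at 2 days, and without those of 20 days 18 were. The shares of all genes called in these fits were not computed.

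**Figure D4:**
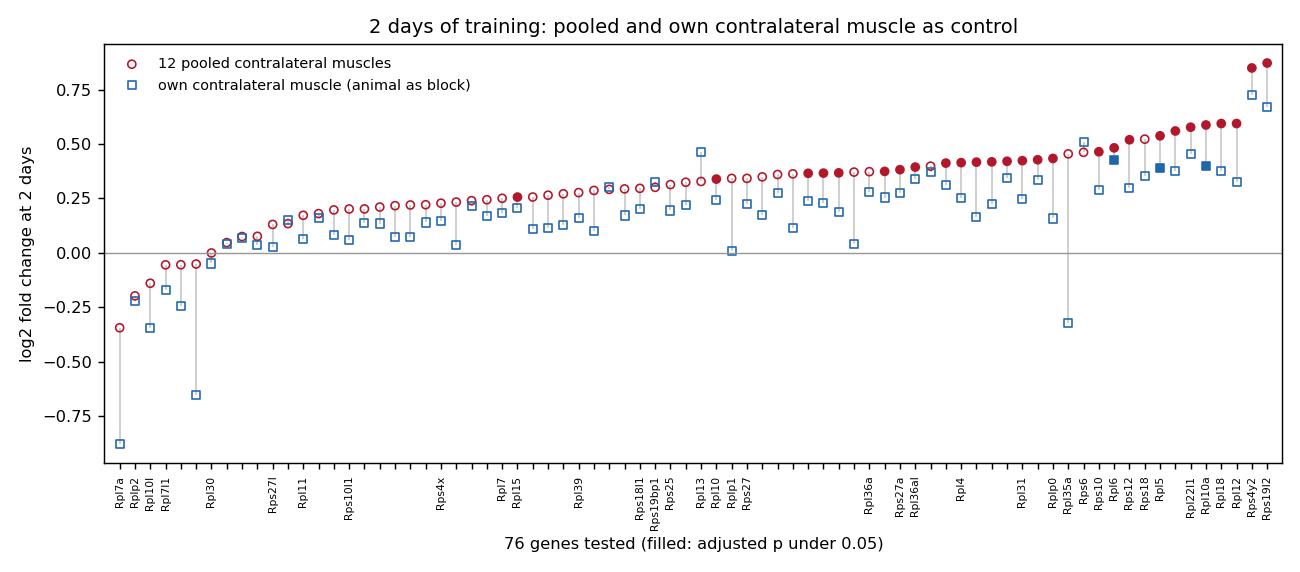
Log2 fold change of each of the 76 members at 2 days, with the genes in order along the horizontal axis and the change on the vertical axis, against the 12 pooled contralateral muscles (circles) and the own contralateral muscle (squares), filled where the adjusted p is under 0.05 and with some genes named. Most points of both kinds lie above 0, with medians of 0.33 and 0.19, and the squares are filled for Rpl10a, Rpl5 and Rpl6.

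After 10 days the members as a list were at the level of the controls. Of the 76, 2 rose (Rpl31 and Rps19l2) and 2 fell (Rpl10 and Rpl7l1), where 16% of all genes rose and 12.8% fell. The median was -0.01 (-0.02 over all genes) and 36 members lay above 0. With the block 1 rose, Rps4y2, and 1 fell, Rpl10, where 12.4% and 7.77% of all genes did. On the values as deposited 7 rose and 1 fell, with a median of 0.10 over the members and of 0.07 over all genes. The share of all genes called on that scale was not computed, so this split alone is no result about the members.

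At 10 days Rps19l2 stood at 10.1, 14.1 and 18.9, with 1 of 3 values among the controls, and its change was 0.51 ± 0.17 (adjusted p = 0.0251, blocked 0.0868). Rpl31, a 60S protein near the exit of the peptide tunnel, stood at 41.1, 43.2 and 33.2, where the controls ran from 22.5 over 29.9 to 39.2, and rose by 0.36 ± 0.12 (adjusted p = 0.0318, blocked 0.0865), after 0.42 ± 0.12 at 2 days. Rpl7l1, a paralogue of Rpl7 found in the nucleolus, stood at 7.22, 7.61 and 10.3 against 7.90, 11.2 and 15.2. It fell by 0.37 on the log2 scale (SE 0.12, adjusted p = 0.0222, blocked 0.31), and was not called on the values as deposited (adjusted p = 0.198). Rps4y2, at 2.74, 3.15 and 0.935, had a change of 0.71 ± 0.27 against the pooled controls (adjusted p = 0.0508) and of 0.91 with the block (adjusted p = 0.0332). Without the trained muscle of animal 1, 2 members were called at 10 days, and without that of animal 2 only Rpl10 was.

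After 20 days 0 of 76 members rose and 3 fell (Rpl10, Rpl15 and Rps12), where limma called 11.9% of all genes higher and 9.37% lower. Without adjustment, 2 members were higher (2.63%) and 6 lower (7.89%) at p under 0.05, against 16.7% and 16.1% of all genes. The median was -0.06 (-0.02 over all genes), and 23 members lay above 0. With the block the median was 0.09, 57 members lay above 0, and 0 were called, with 5 (6.58%) at an unadjusted p under 0.05 against 31.1% of all genes, where 9.92% of all genes were called higher and 7.34% lower. The sign of the median thus turned with the choice of control.

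Rps12 stood at 22.2, 26.4 and 22.8 at 20 days, below all 12 controls, of which the lowest was 26.8. It fell by 0.40 on the log2 scale (SE 0.14, adjusted p = 0.0383, blocked 0.138). Rpl15, a 60S protein, stood at 52.7, 49.7 and 42.1 where the controls ran from 49.1 over 58.1 to 65.5, with 2 of 3 values among the controls, and it fell by 0.28 (SE 0.09, adjusted p = 0.0378, blocked 0.357). Both had risen at 2 days. The count of 3 was 1 without the trained muscle of animal 2 or 3 of 20 days or without the contralateral muscle of animal 1 of 10 days, and it was 5 without the contralateral muscle of animal 2 of 2 days, with 2 higher and 3 lower.

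After 30 days 2 of 76 members rose (Rps25 and Rpl39) and 1 fell (Rpl10), where 11.2% of all genes rose and 9.69% fell. The median was 0.07 (-0.01 over all genes) and 53 members lay above 0. On the values as deposited the split was 1 higher and 9 lower, with a median of -0.13 over the members and of -0.18 over all genes, which is lower still. Since the share of all genes called on that scale was not computed, this split alone is no result about the members. With the block 3 rose, Rpl10a, Rpl39 and Rps25, where 7.26% of all genes did, and 0 fell, where 5.1% did, with 4 members (5.26%) in all at an unadjusted p under 0.05 against 26.5% of all genes.

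Rps25, a 40S protein used by viral internal ribosome entry sites, lies on chromosome 8 (Rnor_6.0, 48727618 to 48729581, plus strand). It stood at 31.4, 46.5 and 32.3 at 30 days, above all 12 controls, which ran from 12.7 over 21 to 31, though the lowest trained muscle exceeded the highest control by little. It rose by 0.79 ± 0.23 (adjusted p = 0.0138), and by 0.88 with the block (adjusted p = 0.0437). At 2, 10 and 20 days its changes were 0.31, 0.05 and -0.12, none of them called.

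Rpl39, among the smallest ribosomal proteins and part of the lining of the peptide tunnel, stood at 76.7, 133 and 106 at 30 days, where the controls ran from 46.0 over 69.6 to 104. It rose by 0.61 ± 0.19 (adjusted p = 0.0213), and by 0.64 with the block (adjusted p = 0.0341), but it was not called on the values as deposited (0.39, adjusted p = 0.0831). The table places it on chromosome 14 (33030959 to 33031283, 325 bases), whereas the RefSeq gene of that name lies on chromosome X. Without the trained muscle of animal 2 of 30 days, Rpl10 was the only member called. Rpl10a, at 21, 27.5 and 26.7, was called with the block (0.46, adjusted p = 0.0279) and not against the pooled controls (0.38 ± 0.18, adjusted p = 0.13).

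Rpl10, a 60S protein that joins the subunit late in the cytoplasm and borders the peptidyl transferase centre, was the only member called at all 4 time points, and its direction turned. Its gene lies on chromosome X (Rnor_6.0, 156438251 to 156440462, minus strand). The 12 controls ran from 262 over 295 to 350. At 2 days it stood at 392, 396 and 371, above all of them, and rose by 0.34 ± 0.10 (adjusted p = 0.0104). At 10 days it stood at 207, 227 and 231, below all controls, and fell by 0.46 on the log2 scale (SE 0.10, adjusted p = 0.00078). The lower level persisted, with values of 256, 215 and 186 at 20 days (-0.49 ± 0.10, adjusted p = 0.000642) and of 224, 245 and 238 at 30 days (-0.37 ± 0.10, adjusted p = 0.00744).

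Against their own contralateral muscle, the trained muscles had more Rpl10 in 3 of 3 animals at 2 days and less in 3 of 3 animals at each later time point. With the block the changes were 0.24, -0.52, -0.39 and -0.32, of which only the one at 10 days was called (adjusted p = 0.197, 0.0113, 0.0537 and 0.122). Over the alternative settings the call held in 23 of 28 at 2 days, 27 of 27 at 10 days, 26 of 27 at 20 days and 24 of 27 at 30 days. On the values as deposited the changes were 0.45, -0.35, -0.50 and -0.59, all of them called, so the turn did not depend on the rescaling.

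Members whose 3 trained values all lay outside the range of the 12 controls were few. At 2 days these were Rpl10, Rpl5 and Rps19l2, all above, where 8.74% of all genes lay above, and 0 lay below, where 6.03% of all genes did. At 10 days Rpl10 lay below (7.63% of all genes) and 0 above (10.4%), at 20 days Rpl10 and Rps12 lay below (4.59%) and 0 above (8.35%), and at 30 days Rps25 lay above (7.5%) and Rpl10 below (6.12%). At each time point the share of members was under that of all genes in both directions.

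Trained groups were also compared with each other. Since the pooled controls cancel out, this compares levels of trained muscles of different animals, and the change from the own contralateral muscle is compared in the blocked fit below. These comparisons share the muscles trained for 2 days. From 2 to 10 days 3 members fell (Rpl10, Rpl4 and Rpl5) and 0 rose, where 0.901% of all genes fell and 1.14% rose. From 2 to 20 days 9 fell and 0 rose (4.56% and 3.69% of all genes), and from 2 to 30 days 14 fell and 0 rose (8.13% and 6.96%). The medians over the 76 members were -0.30, -0.35 and -0.24, and at 2 days the estimate was the highest of the 4 in 60 of 76 members. The share of all genes with the highest estimate at 2 days was not computed.

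Among the differences called, the largest were those of Rps12, at -0.92 ± 0.17 from 2 to 20 days (adjusted p = 0.00156), and of Rpl10, at -0.83 ± 0.12 over the same interval (adjusted p = 0.000213). Rpl10, Rpl4 and Rpl5 were called in all 3 intervals. Rpl13a, Rpl15, Rpl31 and Rps12 were among the members that joined them at 20 days, and Rpl12, Rpl13a, Rpl15, Rpl18, Rplp0, Rplp1, Rps10, Rps12 and Rps19l2 among those at 30 days. Rplp1 was called in neither direction against the controls. From 10 to 30 days Rpl7l1 rose by 0.53 ± 0.15 (adjusted p = 0.0497), where 1.62% of all genes rose, and 0 fell, where 2.44% did.

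With the change from the own contralateral muscle compared instead, 0 members were called by limma in any of these 4 intervals (0.0625%, 1.79%, 2.81% and 0.0803% of all genes), with 5, 5, 5 and 1 at an unadjusted p under 0.05. These are 6.58%, 6.58%, 6.58% and 1.32% of the members, below the 9.55%, 18.4%, 19.5% and 12.1% of all genes. The largest blocked estimate from 2 to 10 days among the called members was that of Rpl10, at -0.76 (adjusted p = 0.147). On the values as deposited 5, 36 and 52 members fell from 2 to 10, 20 and 30 days and 11 fell from 10 to 30 days, on a scale where the median of all genes itself moved by 0.01, -0.11, -0.27 and -0.27. The shares of all genes called on that scale were not computed, so these counts alone are no result about the members.

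**Figure D5:**
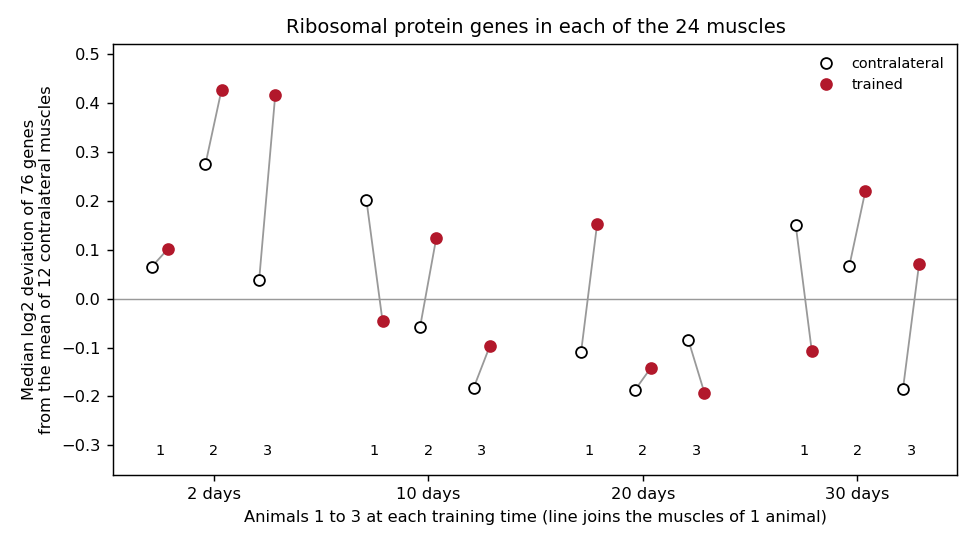
Median over the 76 members of the log2 deviation from the mean of the 12 contralateral muscles, for each of the 24 muscles by time point, with a line joining the 2 muscles of an animal. The trained muscles of animals 2 and 3 at 2 days are the highest (0.43 and 0.42), and from 10 days on trained and contralateral muscles overlap.

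The summed level of the 78 members gave the same order. It was 9531 ± 1093 in the 12 controls, from 8207 to 11643, and 11850 ± 1348 after 2 days, from 10315 to 12841 (SD, n = 3). After 10, 20 and 30 days it was 9472 ± 897, 9135 ± 1378 and 9900 ± 1186. Only the 2-day group had a mean outside the range of the controls, and its lowest muscle lay inside it. The contralateral muscles of the same 2-day animals were the highest control group, at 10465 ± 1029 (SD, n = 3). They include the highest control, and took 1.63% ± 0.0857 of the deposited total. As a share of the deposited total the members took 1.5% ± 0.114 in the controls and 2.02% ± 0.212, 1.61% ± 0.0670, 1.42% ± 0.0861 and 1.33% ± 0.0787 after 2, 10, 20 and 30 days.

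Within the later groups the sign of the list's median differed between animals. Trained minus own contralateral, the median of the members was -0.25, 0.18 and 0.10 in the 3 animals of 10 days, 0.27, 0.06 and -0.09 in those of 20 days, and -0.23, 0.15 and 0.25 in those of 30 days. In a single animal of these later groups, from 10 to 65 of the 76 members lay above 0, and from 47.6% to 50.4% of all genes. Higher in the trained muscle in 3 of 3 animals were 40 members at 2 days and 8, 15 and 6 members at 10, 20 and 30 days. The share of all genes that did so was not computed, so these counts alone are no result about the members.

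Other genes of the same pathway were counted from lists chosen by function. Of all genes tested, 15.6%, 16%, 11.9% and 11.2% rose at 2, 10, 20 and 30 days. At the same times 13.1%, 12.8%, 9.37% and 9.69% of all genes fell. Ribosomal proteins of the mitochondrion, 73 genes, had 1 higher and 11 lower at 2 days with a median of -0.16, 1 and 9 at 10 days (-0.13), 3 and 1 at 20 days (0.05) and 8 and 0 at 30 days (0.08). Their median at 2 days had the opposite sign to that of the cytoplasmic list, and the difference between the lists was not tested. Of these 73 genes, 15.1% fell at 2 days and 12.3% at 10 days, near the shares of all genes. Of 47 genes for ribosome assembly and RNA polymerase I, 11 rose and 0 fell at 2 days (median 0.16), and at 10, 20 and 30 days 1 rose each time and 6, 3 and 6 fell. In that list 23.4% rose at 2 days, and 12.8%, 6.38% and 12.8% fell at the later times. Of 20 upstream regulators, 3, 3, 2 and 2 rose and 3, 5, 5 and 4 fell, which at 2 days is 15% in each direction.

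Of 25 TOP mRNAs that do not encode members, 7 rose and 1 fell at 2 days, with a median of 0.13, and at the later times 4, 1 and 2 rose and 2, 1 and 1 fell. At 2 days this is 28% and 4%, against 15.6% and 13.1% of all genes. Eef1a1, the elongation factor that delivers aminoacyl-tRNA, rose by 0.62, 0.92, 0.79 and 0.85 at 2, 10, 20 and 30 days and was called at each of them. Eef2, which moves the ribosome along the mRNA, was called at none, with changes of 0.10, -0.15, -0.27 and -0.29. Tpt1, another TOP mRNA, changed by 0.04, -0.39, -0.21 and 0.05, of which only the value at 10 days was called (adjusted p = 0.0213).

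Of the ribosomal proteins that carry other names, Rpsa rose at 2 days by 0.38 (adjusted p = 0.0194), with a blocked change of 0.16, and there it was not called. Rack1, a scaffold on the 40S subunit, rose by 0.29 (adjusted p = 0.0385) and fell by 0.33 at 30 days (adjusted p = 0.0257), and neither was called with the block. Fau, a fusion with a ubiquitin-like protein, had a change of 0.18 at 2 days and was not called. Myc, the transcription factor known to drive ribosome production, rose by 2.94, 2.67, 2.19 and 1.45 at 2, 10, 20 and 30 days (adjusted p = 2.89e-09, 1.24e-08, 4.19e-07 and 0.000138).

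The labelled tissue was checked against marker genes of each cell type. The 10 muscle fiber markers with rows summed to 76586 to 91955 in the controls and to 76526 to 77273, 79252 to 104134, 61243 to 96573 and 74614 to 82740 in the trained groups. Of these 10 markers 1, 5, 2 and 1 rose and 3, 3, 4 and 3 fell at 2, 10, 20 and 30 days. Of 10 macrophage markers 8, 9, 10 and 10 rose at 2, 10, 20 and 30 days. Their summed level was 19 to 44.3 in the controls and 68.4 to 177, 58.7 to 125, 77.8 to 93.0 and 81.4 to 106 in the trained groups. Of 7 fibroblast markers 4, 6, 6 and 6 rose, from 90.2 to 279 in the controls to 323 to 522 at 2 days and 547 to 1032 at 10 days. Of 7 endothelial markers 0, 3, 4 and 3 rose (with 0 of 7 higher at 2 days also without adjustment), of 4 satellite cell markers 2, 2, 1 and 1, of 4 Schwann cell markers 1, 0, 0 and 0, and of 4 adipocyte markers 0, 1, 1 and 1. Of these lists, 1 satellite cell marker fell at 2 days and 1 Schwann cell marker at 30 days. Neutrophil markers were too low to be tested, with a summed level of at most 2.85. Macrophage and fibroblast markers were thus raised at every time point, whereas the ribosomal protein list was above the controls at 2 days, and their part in the result was not tested.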

How the data were processed

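RNA from 24 tibialis anterior muscles of 12 rats was sequenced by the authors as poly-A libraries (NEBNext Ultra II Directional, paired-end 150-base reads) and, per the paper and the labels, aligned with STAR in Partek Flow to Rnor_6.0 (rn6) and quantified against the Ensembl annotation. Per transcript, values taken here to be of the TPM type were deposited by the authors, in 20027 rows scaled to 1 total per sample. They keep no depth per sample, for which the study states only a minimum, so count models were not run. A gene-level table filtered by the authors and a table of the authors' own comparisons (p-values, FDR, ratios and least-squares means) were not used.

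Transcript values were summed per gene and divided by median-of-ratios factors from the 12276 genes above 0 in all muscles. Genes that reached 1 in 3 or more muscles were kept (11206 genes, 76 of 78 members). The model was fitted to log2(value + 1) by limma (version 3.58.1, under R 4.3.3), with 1 group of 12 contralateral muscles and 4 trained groups of 3, Benjamini-Hochberg adjustment over all genes tested and a threshold of 0.05. Trained groups were compared by contrasts in the same fit, and the 4 contralateral groups by a limma F test. Groups and animal numbers came from the labels. Within a group the replicates are separate animals. In the fit with pooled controls, p-values measure the spread between muscles within the groups. That fit treats the trained and the contralateral muscle of an animal as independent, although both come from the same animal. With the animal as block, p-values measure the spread of the differences within animals. Python 3.11.15 with pandas 2.3.3 and numpy 2.4.6 made the tables, and matplotlib 3.10.9 the plots.

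The members, the lists and the tests were chosen with earlier results of these data known. Members named by rule (42) were the 4 highest and 4 lowest changes at each time point, members called against the direction of most, the stalk genes, paralogues with the gene they are named after, Rps27a, Rps6, Rpl5 and Rpl11, the 3 highest and 3 lowest by control level, members called at all 4 time points and members called between trained groups. The other members called are named because they were called, or, as Rpl10a and Rpl6, because they were called with the block, and were chosen after their values were seen, as was Rps23. Some genes are counted and are not reported here by name.

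The muscles of a number come from the same animal, so the numbers pair the samples. Deviations from the group means correlated with a median r of 0.174 between the muscles of an animal (0.0279 to 0.342 over 12 animals) and of 0.00823 between other animals. Of 276 pairs of libraries, 0 held identical values. Tested on simulated data for 2 days (11206 genes), the pooled fit recovered 90.7% of genes changed by 1 on the log2 scale and 48% of those changed by 0.5, with 4.48% false calls, and the blocked fit 71.7% and 11.4%, with 5.25% false. The simulated muscles were drawn independently, without correlation within an animal or a shift between contralateral groups. These rates therefore cannot decide which fit is better for the real muscles.

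Alternatives were the values as deposited, factors without the members, shares of nuclear-encoded genes, a pseudocount of 0.1, no filter, an intensity trend, a threshold of 0.01, 1 transcript per gene, time-matched controls, the animal as replicate block and each muscle left out in turn. After seeing the data, the omission of the contralateral muscles of 2 or of 20 days, the block without animal 1 of 2 days, the test of the contralateral muscles of 2 days and alternatives of the F test were added. Promoter sequences and locus names came from RefSeq (GRCr8).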

Additional observations from a re-analysis of the deposited data

Results flagged for a closer look

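The level in trained muscle differed between durations of training, by a limma contrast of the trained groups, in 3 members between 2 and 10 days, in 9 between 2 and 20 days, in 14 between 2 and 30 days and in 1 between 10 and 30 days. Between 2 and 10 days the differences, 10 minus 2 days on the log2 scale, were -0.80 for Rpl10, -0.61 for Rpl4 and -0.67 for Rpl5. Compared as changes from the own contralateral muscle, 0 members differed in limma at the adjusted threshold between 2 and 10 days, with 5 members (6.58%) and 9.55% of all genes at an unadjusted p under 0.05, so these counts do not show that the change itself differed. The groups of 3 and of 12 muscles were outside the sizes for which a check for single outlying muscles was made.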

How the results depend on the processing

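With each trained muscle compared with its own contralateral muscle (animal as a replicate block), the counts of members called at 2, 10, 20 and 30 days were 3, 2, 0 and 3, and 0, 0, 0 and 0 for the contrasts of 2 with 10, 20 and 30 days and of 10 with 30 days. Leaving animal 1 of 2 days out of the blocked fit, a choice made after seeing the data, gave 3 at 2 days (Rpl5, Rpl6 and Rps12). With the time-matched controls alone the counts were 2, 1, 1 and 0, and no share of all genes is given beside them.

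On the values as deposited the counts were 52 at 2 days, 8 at 10 days and 10 at 30 days, and 5, 36, 52 and 11 for the contrasts, and the mean summed level at 30 days was 8464. No share of all genes called is given beside these counts. Against the controls, the median of all genes shifted most between the 2 scalings at 30 days, from -0.01 to -0.18, and among the contrasts it shifted from -0.01 to -0.27 between 2 and 30 and between 10 and 30 days. A threshold of 0.01 gave 9, 1, 1 and 1. Using 1 transcript per gene gave 2 at 10 days and 1 at 20 days, shares of nuclear-encoded genes gave 5 at 30 days, and dropping the 2-day contralateral muscles gave 1 at 20 days. The 1 call between 10 and 30 days became 0 with a pseudocount of 0.1, with no filter and without the 20-day contralateral muscles. For these alternatives, too, no share of all genes called was computed.

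Leaving out 1 muscle at a time gave 4 to 36, 1 to 5, 1 to 5 and 1 to 4 calls at 2, 10, 20 and 30 days. It gave 2 to 11, 4 to 20, 4 to 18 and 0 to 1 for the contrasts and 0 to 0 for the F test of the contralateral groups. The counts between 2 and 20 days were 4, 5 and 5 without trained animal 2 or 3 of 2 days or animal 3 of 20 days, and 20 without animal 1 of 2 days, whose omission gave 11 between 2 and 10 days. Between 2 and 30 days they were 4 and 6 without trained animal 2 or 3 of 2 days and 7 and 8 without animal 1 or 3 of 30 days. The cause of these shifts was not tested beyond the smaller number of samples. No share of all genes called was computed for the fits with a muscle left out.

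The median of the members stayed above 0 in 27 of 27 alternatives at 2 days (0.19 to 0.44) and took either sign at 10 days (-0.08 to 0.10), 20 days (-0.16 to 0.09) and 30 days (-0.13 to 0.17). Of 4350 alternative values of named members, 0 changed sign where called, 147 lost a call and 47 gained one. Most of the 4350 belong to values not called in the main fit, which could not lose a call. Among members called at 2 days, the call held in from 12 of 28 alternatives (Rpl15) to 28 of 28 (Rpl5). The values keep no depth, so no counting error can be given, and levels of members with near-identical copies are uncertain.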
